A study of Mus musculus with 6 samples.

Results

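Nuclear receptors are transcription factors whose activity is set by small lipid-soluble hormones and fats, and 10 of them, receptors whose ligands have been studied for their effects on glia and myelin, were read out here: the estrogen receptors Esr1 and Esr2, the thyroid hormone receptors Thra and Thrb, the retinoid X receptor Rxra, the fatty acid sensors Ppara, Ppard and Pparg, the vitamin D receptor Vdr and the glucocorticoid receptor Nr3c1. They were found by gene symbol among the 39017 genes of the count table, and all 10 had a row. The libraries are RNA pulled down with an anti-HA antibody from corpus callosum, the white matter tract between the hemispheres, of C57BL/6 mice that carry both RiboTag and Olig1-Cre. Cre switches on an HA-tagged form of RPL22, a protein of the ribosome, in each cell in which it has been active, so the tag marks the history of the Olig1 promoter and not a single cell stage, and both groups carry it. The 3 control libraries (replicates 24, 26 and 27, titled Vehicle) were set against 3 libraries of mice on food with 0.2% cuprizone (replicates 30, 31 and 32, titled Cuz), a copper chelator that kills oligodendrocytes. The protocol describes females of 8 to 10 weeks, 6 or 9 weeks on the diet and 3 weeks of recovery, and does not say which of these the cuprizone libraries had. The labels do not say whether each library is 1 animal, so the p-values measure the spread between these libraries, which may be technical in part.

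Thyroid hormone, glucocorticoids, retinoids, vitamin D, estrogens and fatty acids all reach the nucleus as ligands. Most of their receptors bind pairs of short DNA hexamers, the thyroid, vitamin D and fatty acid receptors as heterodimers with a retinoid X receptor and the steroid receptors as homodimers. In the oligodendrocyte lineage thyroid hormone and retinoid X receptor ligands are known to promote differentiation, and glucocorticoids and thyroid hormone are standard additions to oligodendrocyte culture media.

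Total counts ran from 18549360 to 18771737 in the controls and from 19455245 to 22381307 in the cuprizone libraries. All 20 mature oligodendrocyte markers checked were present in every library, with summed levels of 70779 to 92449 CPM (a count per 1000000 counts of the library, its size scaled by TMM factors) in the controls and 9338 to 18199 CPM in cuprizone. Within the cuprizone group replicate 32 was the most distant library: chi-square divided by its degrees of freedom was 85.1 and 101 when its counts were set against those of the other 2, and 26.6 for replicates 30 and 31. It had the highest summed microglia and macrophage markers (5789 CPM, against 1468 to 3124 CPM in the other 5 libraries) and cortical excitatory neuron markers (1126 CPM, against 419 to 742 CPM), and the lowest astrocyte markers (13449 CPM, against 19217 to 26465 CPM). In bulk RNA of this kind, fewer cells of a type and less RNA per cell cannot be told apart.

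None of the 9 receptors that could be tested passed an adjusted p of 0.05 between the diets with edgeR's quasi-likelihood test, where 7.57% of the 16569 genes tested passed. At an unadjusted p under 0.05 there were 2 of the 9, Ppard and Vdr, against 23.3% of all genes tested, and DESeq2 called the same 2 genes, against 13.7% of all genes. Ppard, a sensor of fatty acids, stood lower in every cuprizone library than in any control, and Vdr stood higher. Nr3c1 was the third member whose groups did not overlap, which held for 30.2% of all genes tested. The median log2 fold change of the 9 was 0.10, beside 0.02 over all genes tested. Outside the 10, the retinoid receptors Rxrg, Rarb and Rara rose with edgeR, 3 of 29 other nuclear receptors tested where 1.87% of all genes tested were higher. None of these 3 calls remained when any 1 control was left out. Striatal neuron markers were also higher in the cuprizone libraries, and their part in these rises was not tested.

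**Figure D1:**
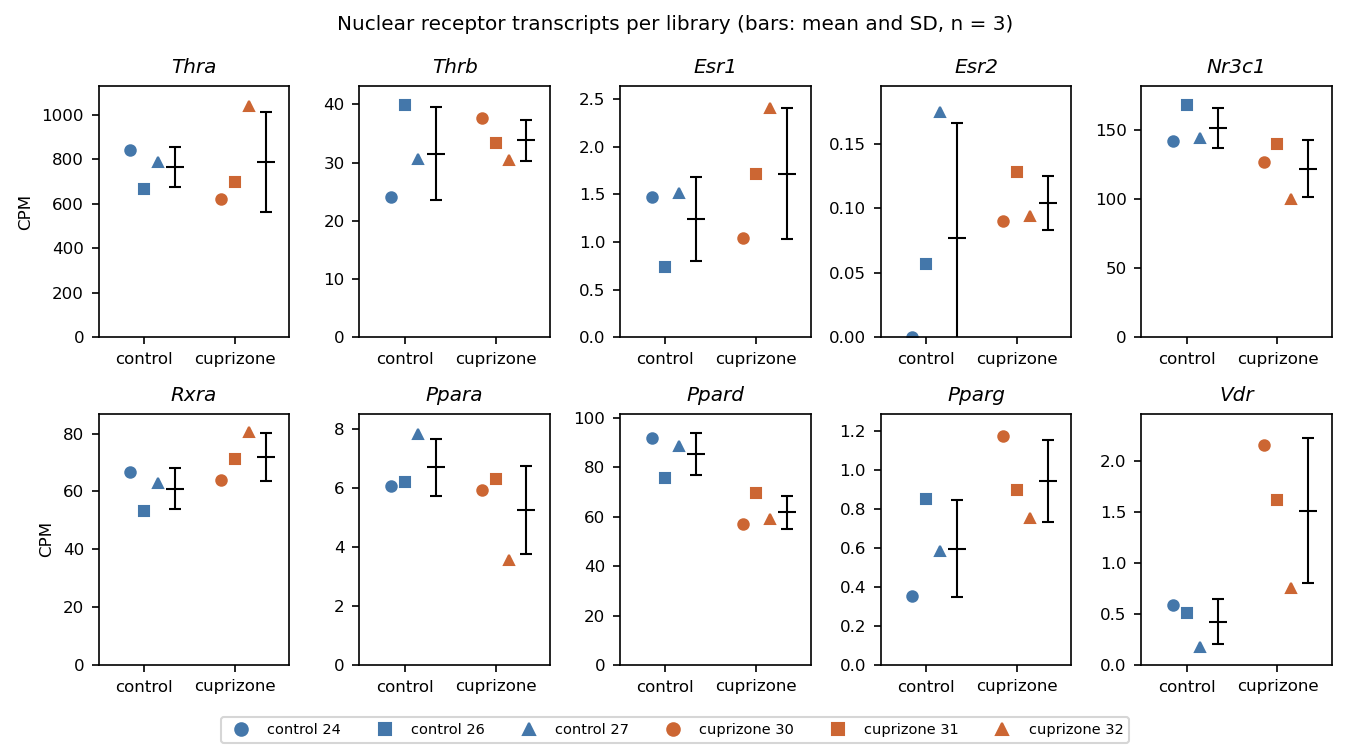
Level of each of the 10 receptors in CPM (vertical axes, each from 0, scales differ) in the 3 control and 3 cuprizone libraries, 1 symbol per library, with the mean and SD beside them (the SD bar of Esr2 is cut at 0). Ppard, Vdr and Nr3c1 are the panels in which the groups are apart, and Thra is highest in cuprizone replicate 32 at 1041 CPM.

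The windows of 3 genes around their transcription start sites are shown, those of Ppard and Vdr because these 2 members had the smallest p-values, and that of Rarb because it holds the paired site found among the receptors' windows. They are RefSeq sequences of GRCm38.p6, from 250 bases before to 50 after the start, on the strand of the gene. Capitals mark matches, on both strands, to core hexamers of some nuclear receptors (AGGTCA and its variant GGGTCA, as well as AGTTCA together with its variant GGTTCA). They also mark any direct repeat of 2 such hexamers with 1 to 5 bases between them. Other hexamers and inverted repeats were not searched for, so a window without capitals can still hold them.
Ppard, chr17:28232504-28232803, plus strand: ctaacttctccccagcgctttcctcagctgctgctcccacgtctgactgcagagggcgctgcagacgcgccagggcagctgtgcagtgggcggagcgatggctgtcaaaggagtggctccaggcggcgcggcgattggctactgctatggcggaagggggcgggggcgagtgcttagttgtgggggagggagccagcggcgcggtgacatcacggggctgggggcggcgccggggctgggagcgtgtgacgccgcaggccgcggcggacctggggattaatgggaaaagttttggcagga
Vdr, chr15:97908247-97908546, minus strand: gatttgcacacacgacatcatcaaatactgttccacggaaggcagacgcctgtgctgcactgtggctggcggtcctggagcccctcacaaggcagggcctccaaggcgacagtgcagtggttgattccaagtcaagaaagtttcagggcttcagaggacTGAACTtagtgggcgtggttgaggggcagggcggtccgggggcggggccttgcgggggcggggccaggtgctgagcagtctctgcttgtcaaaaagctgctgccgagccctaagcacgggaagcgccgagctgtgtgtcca
Rarb, chr14:16575427-16575726, minus strand: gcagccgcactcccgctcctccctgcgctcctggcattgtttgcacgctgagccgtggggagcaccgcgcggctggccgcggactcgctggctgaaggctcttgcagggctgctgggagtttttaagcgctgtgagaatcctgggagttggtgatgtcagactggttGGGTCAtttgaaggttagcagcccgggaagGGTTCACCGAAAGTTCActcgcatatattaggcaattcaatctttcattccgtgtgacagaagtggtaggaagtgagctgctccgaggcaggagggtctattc

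A direct repeat of this kind was found in 230 of 32851 windows (0.7%), and at least 1 hexamer in 43.7%. The 8 members with a window in the RefSeq table that was searched had 13 windows, none with a direct repeat and 6 with a hexamer. The Ppard window had no hexamer and the Vdr window 1. Among 50 windows of 34 other nuclear receptors, the window of Rarb, which encodes retinoic acid receptor beta, held a repeat with 5 bases between the hexamers, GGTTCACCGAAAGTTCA, at chr14:16575513-16575529. This is the spacing that heterodimers of retinoic acid receptors with a retinoid X receptor such as RXRA are known to bind. The match describes the letters of the window and was not a measurement of binding.

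Levels differed widely between the members. Per kilobase of merged exon, Thra had 166 ± 19.5 RPKM (counts per kilobase of exon, scaled as CPM) in the controls (SD, n = 3), above 98.8% of all genes tested when averaged over the 6 libraries. Nr3c1 followed at 19.7 ± 1.89 RPKM, then Ppard at 11.4 ± 1.13 RPKM and Rxra at 11.2 ± 1.28 RPKM, which did not differ beyond their spread. Thrb had 4.26 ± 1.07 RPKM and Ppara 1.74 ± 0.253 RPKM. The last 4 lay far below: Pparg at 0.202 ± 0.0841 RPKM, Esr1 at 0.0909 ± 0.0320 RPKM, Vdr at 0.0752 ± 0.0390 RPKM and Esr2 at 0.0229 ± 0.0265 RPKM. Within that low group Esr1 and Vdr, and Vdr and Esr2, overlapped in the controls. In the cuprizone libraries Rxra (13.2 ± 1.52 RPKM) stood above Ppard (8.23 ± 0.900 RPKM) in every library. The range of Vdr (0.268 ± 0.126 RPKM) overlapped that of Pparg (0.319 ± 0.0718 RPKM). Within each cuprizone library Pparg was above Vdr, though only slightly in replicates 30 and 31.

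Thra encodes the main thyroid hormone receptor of brain (ENSMUSG00000058756, chromosome 11, 98740638 to 98769006 in GRCm38). It had 843, 667 and 787 CPM in control replicates 24, 26 and 27, and 622, 697 and 1041 CPM in cuprizone replicates 30, 31 and 32. The groups overlapped, with the highest value of all 6 in cuprizone replicate 32. The log2 fold change was 0.04, with a 95% interval from -0.51 to 0.59 (adjusted p = 0.941), and without cuprizone replicate 32 it was -0.22 (adjusted p = 0.438). In that library the cortical neuron markers were also highest (1126 CPM). The other libraries did not follow this order: control replicate 24 had the highest Thra and the lowest of these markers among the controls (439 CPM). Cuprizone replicate 31 had more Thra but fewer of them than replicate 30 (419 and 521 CPM). The part of these markers in the level of Thra was not tested. Thra and Nr1d1, a circadian repressor of the same receptor family, lie on opposite strands and share 263 bases of exon, 5.7% of the exon length of Thra. How the counting treated strand is not given in these sources, so reads from the shared bases could have gone to either gene. Nr1d1 was at 254 to 286 CPM in all 6 libraries (log2 fold change -0.08). The counts are per gene, so the splice form of Thra that binds hormone and the one that does not are summed.

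Thrb encodes the second thyroid hormone receptor (ENSMUSG00000021779, chromosome 14, 17660261 to 18038090). It had 24.1, 39.9 and 30.6 CPM in the controls and 37.6, 33.4 and 30.5 CPM in cuprizone, so that the cuprizone values lay inside the range of the controls. Its log2 fold change was 0.10 (95% interval -0.35 to 0.56, adjusted p = 0.797), and -0.04 without control replicate 24. Thra made up 97.4% ± 0.938 of the thyroid hormone receptor reads per kilobase in the controls and 97.2% ± 0.924 in cuprizone.

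Genes known to respond to thyroid hormone were read out as well. Of 8 tested target genes of thyroid hormone 3 fell and none rose with edgeR (5.7% and 1.87% of all genes tested). DESeq2 called 3 lower and 1 higher, where it called 1400 of the 16569 genes tested lower and 862 higher. By sign the 8 target genes were split, 4 lower and 4 higher, from -2.62 to 1.21 with a median log2 fold change of -0.23. Hr, a corepressor that binds thyroid hormone receptors and is itself induced by the hormone, had 130, 112 and 118 CPM in the controls and 59.7, 73.9 and 47.8 CPM in cuprizone, with no overlap (-0.99 ± 0.17 on the log2 scale, SE, adjusted p = 0.0165). Thrsp, a regulator of lipid synthesis, had 109, 82.5 and 87.3 CPM in the controls and 50, 66.4 and 51.9 CPM in cuprizone (-0.73, adjusted p = 0.0414). The third was Mbp (-2.62), which encodes myelin basic protein. Klf9, an early target in brain, was at 0.15 (adjusted p = 0.601). Between 0 and 3 of these genes fell with a library left out, and the count was 0 without cuprizone replicate 30 and 1 without control replicate 24, 26 or 27. The adjusted p of Hr then reached 0.0738, that of Thrsp 0.143 and that of Mbp 0.0558. The 20 mature oligodendrocyte markers, Mbp among them, all fell in the same libraries, and their part in the values of Hr and Thrsp was not tested.

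Dio2, which makes the active hormone from its precursor, had 228, 257 and 260 CPM in the controls and 150, 234 and 116 CPM in cuprizone, where replicate 31 alone reached the lower end of the controls (log2 fold change -0.58, adjusted p = 0.23). This gene was chosen after its values were seen.

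Ppard (ENSMUSG00000002250, chromosome 17, 28232700 to 28301474) had 91.9, 75.8 and 88.8 CPM in the controls and 56.9, 69.5 and 59.0 CPM in cuprizone. Every cuprizone library was below every control. This was a log2 fold change of -0.47 ± 0.13 (95% interval -0.77 to -0.16), with an adjusted p of 0.0812 with edgeR and 0.026 with DESeq2. With a library left out the fold change ran from -0.56 to -0.39 and the adjusted p from 0.0648 to 0.255. The mature oligodendrocyte markers were also higher in each control than in each cuprizone library, and within each group the library with most of them had the highest Ppard (92449 CPM in control replicate 24 and 18199 CPM in cuprizone replicate 31). Their part in the level of Ppard was not tested.

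**Figure D2:**
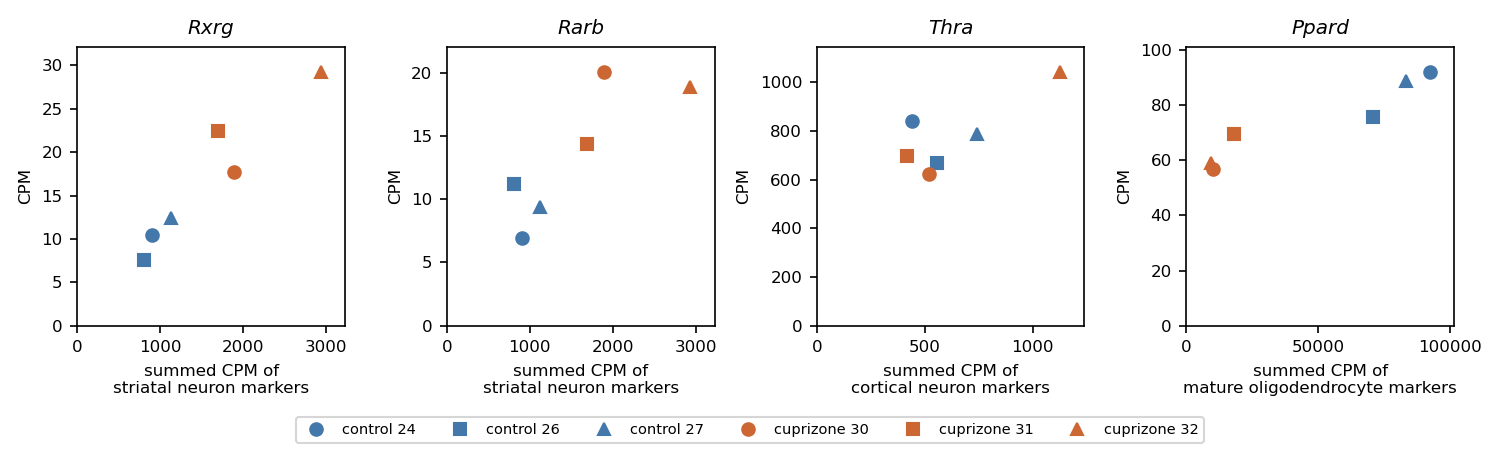
CPM of Rxrg, Rarb, Thra and Ppard (vertical axes from 0) against the summed CPM of a marker list in the same library (horizontal axes from 0), 1 point per library. Rxrg and Rarb were higher in the cuprizone libraries, where the striatal neuron list summed to 1695 to 2937 CPM. Among the controls Rarb was highest where this list was lowest (809 CPM). Thra was highest in the library with 1126 CPM of cortical neuron markers, but among the controls it was highest where these were lowest (439 CPM). Ppard was higher in the controls, where the mature oligodendrocyte list summed to 70779 to 92449 CPM.

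Ppara, which drives fatty acid oxidation genes in many tissues (ENSMUSG00000022383, chromosome 15, 85734983 to 85802819), had 6.07, 6.18 and 7.80 CPM in the controls and 5.91, 6.29 and 3.54 CPM in cuprizone. The groups overlapped, and the lowest value was that of cuprizone replicate 32. The log2 fold change was -0.35 (95% interval -0.94 to 0.24), and -0.13 without that library. Pparg, best known from fat cells and macrophages (ENSMUSG00000000440, chromosome 6, 115360951 to 115490399), rested on 6 to 15 counts in the controls and 16 to 26 in cuprizone. Its levels were 0.354, 0.850 and 0.582 CPM in the controls and 1.17, 0.898 and 0.755 CPM in cuprizone, with overlap (log2 fold change 0.65, 95% interval -0.27 to 1.58, adjusted p = 0.367). Per kilobase, Ppard made up 85.4% ± 2.10 of the reads of the 3 receptors in the controls and 83.1% ± 3.67 in cuprizone, and their sum was 13.3 ± 1.16 RPKM and 9.91 ± 1.14 RPKM.

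Of 24 tested target genes of these receptors 1 rose and 1 fell with edgeR, which is near the shares of all genes tested (1.87% higher and 5.7% lower). DESeq2 called 2 each way, where it called 862 of the 16569 genes tested higher and 1400 lower. The median log2 fold change of the 24 target genes was -0.10. Plin2, which coats lipid droplets, had 23.2, 18.0 and 18.3 CPM in the controls and 42.1, 35.6 and 47.9 CPM in cuprizone (1.08 ± 0.16, adjusted p = 0.00907). Its adjusted p was 0.0573 without control replicate 26 and 0.0595 without control replicate 27. Plin4, another droplet coat protein, had 40.0, 20.5 and 8.79 CPM in the controls and 3.16, 5.09 and 3.07 CPM in cuprizone (-2.61 ± 0.54, adjusted p = 0.0311). Leaving out control replicate 24 or 26, or any of the cuprizone libraries, ended that call (adjusted p up to 0.119), as did limma-voom (0.0701). Acadvl, an enzyme of fatty acid oxidation, was at -0.45 (adjusted p = 0.0831, and 0.028 with DESeq2). The oxidation genes Cpt1a and Hadha were not called in either direction.

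**Figure D3:**
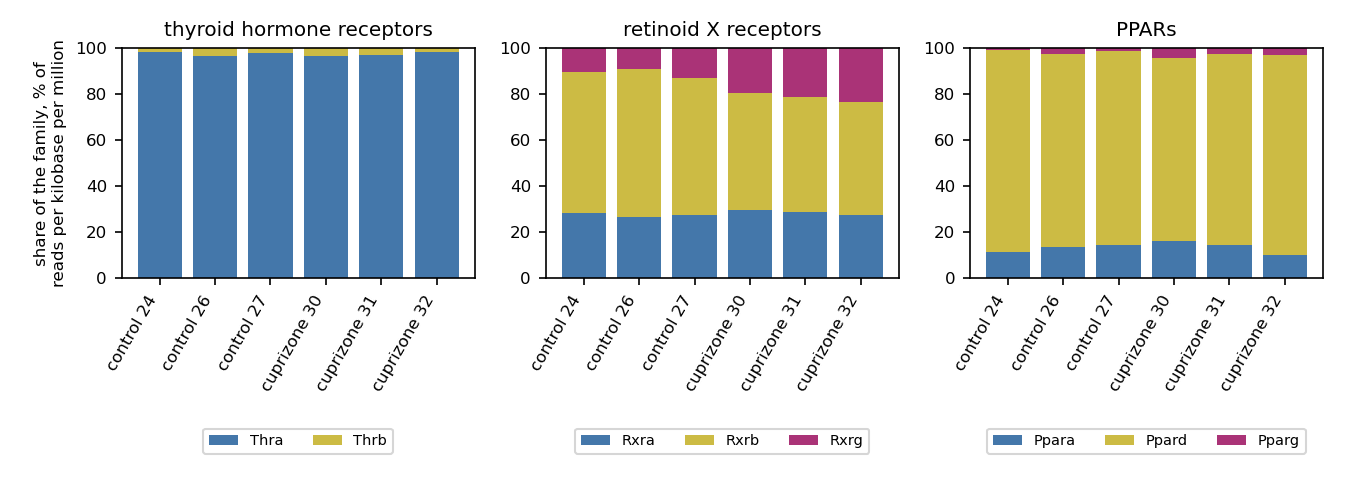
Share of each gene in the summed RPKM of its receptor family, in percent (vertical axis, 0 to 100), for each of the 6 libraries. Thra is above 96% of its pair throughout, Ppard near 80% or more of its family, and the Rxrg segment is larger in each cuprizone library than in any control.

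Rxra, the shared partner of the thyroid, vitamin D and fatty acid receptors (ENSMUSG00000015846, chromosome 2, 27676440 to 27762957), had 66.8, 53.2 and 62.8 CPM in the controls and 64.0, 71.4 and 80.6 CPM in cuprizone. The groups overlapped. The log2 fold change was 0.24 (95% interval -0.08 to 0.56, adjusted p = 0.34), and 0.15 without cuprizone replicate 32.

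The other retinoid X receptor genes were Rxrg and Rxrb. Rxrg, which is expressed in differentiating oligodendrocytes and in striatal neurons, had 10.4, 7.54 and 12.4 CPM in the controls and 17.8, 22.4 and 29.2 CPM in cuprizone (log2 fold change 1.19 ± 0.24, adjusted p = 0.0308). Rxrb had 98.6 ± 5.60 CPM and 91.8 ± 12.3 CPM (-0.10, adjusted p = 0.685). The share of Rxrg in the reads per kilobase of the 3 genes was 10.8% ± 1.92 in the controls and 21.5% ± 2.07 in cuprizone, that of Rxrb 59.8% to 64.1% and 49.0% to 51.0%, and that of Rxra 27.6% ± 0.886 and 28.5% ± 1.07. The difference in response between the 3 genes was not tested.

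Of the 38 other nuclear receptors 29 were tested, of which 3 rose, 1.87% of all genes tested being higher, and none fell with edgeR. There were 6 at an unadjusted p under 0.05 in either direction, where 23.3% of all genes were. DESeq2 called 5 higher and 0 lower, where it called 862 of the 16569 genes tested higher and 1400 lower. Beside Rxrg the genes that rose with edgeR were Rarb and Rara, both receptors of retinoic acid. Rarb had 6.90, 11.2 and 9.38 CPM in the controls and 20.02, 14.4 and 18.9 CPM in cuprizone (0.95 ± 0.22, adjusted p = 0.0429). Rara had 15.2, 13.6 and 15.5 CPM and 21.2, 19.7 and 23.7 CPM (0.55 ± 0.12, adjusted p = 0.0433). Neither gene's groups overlapped. Rarg, the third receptor of retinoic acid, did not pass with edgeR, at 0.62 (adjusted p = 0.0707), but passed with DESeq2 (0.0187) and with edgeR without cuprizone replicate 32 (0.0171). With a library left out these calls were often lost: none of the 3 passed without control replicate 24, 26 or 27, and 1 passed without cuprizone replicate 30, 31 or 32. Rara was lost in all 6 of these fits and with no filter on low counts (0.0504), and without cuprizone replicate 32 the adjusted p was 0.0755 for Rarb and 0.0645 for Rara. The adjusted p reached 0.0879 for Rxrg, 0.139 for Rarb and 0.147 for Rara. Of 10 striatal neuron markers 5 passed, higher in cuprizone (1.87% of all genes tested), and all 10 were higher without overlap between the groups (12.6%). Without control replicate 24 or 26 only 2 passed, and 3 without control replicate 27 or cuprizone replicate 30. Their summed level was 809 to 1125 CPM in the controls and 1695 to 2937 CPM in cuprizone. Rarb and Rxrg are also known for their expression in striatal neurons. Within each group Rxrg was highest in the library with most of these markers (1125 CPM in control replicate 27, 2937 CPM in cuprizone replicate 32). Rarb was highest in control replicate 26, where they were lowest (809 CPM), and in cuprizone replicate 30 (1890 CPM). The part of these markers in the 2 rises was not tested. Of 8 pan-neuronal markers edgeR called 0, against 7.57% of all genes tested. Their summed level overlapped between the groups, at 1364 to 2107 CPM in the controls and 1621 to 3025 CPM in cuprizone.

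**Figure D4:**
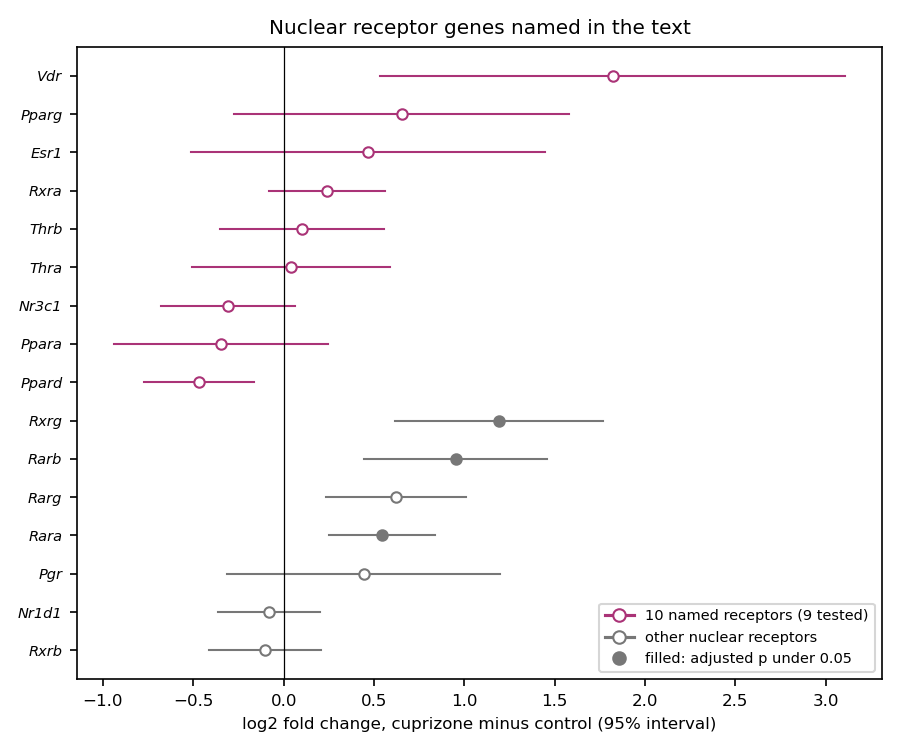
Log2 fold change, cuprizone minus control, with its 95% interval (horizontal axis) for the 9 tested receptors of the 10 and for the other nuclear receptors named in the text. Filled points, Rxrg, Rarb and Rara, have an adjusted p under 0.05; Vdr has the largest estimate of the 9 at 1.82, and the widest interval of them.

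Vdr (ENSMUSG00000022479, chromosome 15, 97854425 to 97910630) was among the rarest transcripts tested. It had 10, 9 and 3 counts in the controls and 48, 38 and 16 in cuprizone, or 0.589, 0.510 and 0.175 CPM and 2.16, 1.63 and 0.755 CPM. Every cuprizone library was above every control, and replicate 32 was the lowest of its group. Its log2 fold change was 1.82 ± 0.55 (95% interval 0.53 to 3.11), with an adjusted p of 0.101 with edgeR, 0.036 with DESeq2 and 0.0419 with edgeR without cuprizone replicate 32. The endothelial and mural markers had a median log2 fold change of 1.26, and their summed level was 190 to 203 CPM in the controls and 161 to 257 CPM in cuprizone, with the lowest value in replicate 31. Their part in the level of Vdr was not tested. Of 8 vitamin D target genes 3 could be tested, and no tool of edgeR, DESeq2 and limma-voom called any. Of all genes tested edgeR called 7.57% and DESeq2 13.7%, and 0 of 3 is near these shares. An unadjusted p under 0.05 was seen for 1 of the 3, against 23.3% of all genes tested. Spp1, which encodes osteopontin, was at 1.67, the calcium-binding protein gene Calb1 at 0.52 and the calcium channel gene Trpv6 at 0.46. The enzyme gene Cyp24a1, a classic target of the receptor, had a level of 0.0567 CPM in control replicate 26 and 0 in the other 5 libraries.

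Nr3c1 (ENSMUSG00000024431, on chromosome 18) encodes the receptor of cortisol and corticosterone. It had 141, 168 and 144 CPM in the controls and 127, 140 and 99.5 CPM in cuprizone. The groups did not overlap, although control replicate 24 and cuprizone replicate 31 were close. On the log2 scale the difference was -0.31 (95% interval -0.68 to 0.06, adjusted p = 0.289), and -0.18 without cuprizone replicate 32, which had the lowest value.

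Of 20 genes known as targets of the glucocorticoid receptor 1 rose and 2 fell with edgeR (1.87% and 5.7% of all genes tested). DESeq2 called 3 higher and 2 lower, where it called 862 of the 16569 genes tested higher and 1400 lower. The median log2 fold change of the 20 target genes was 0.13. Cdkn1a, an inhibitor of the cell cycle that p53 also induces, rose, with a mean of 13.0 ± 2.60 CPM in the controls and of 112 ± 23.4 CPM in cuprizone (3.11 ± 0.22, adjusted p = 0.00101). Arrdc2, an arrestin domain protein, fell, with means of 37.7 ± 4.43 CPM and 11.6 ± 2.50 CPM (-1.70 ± 0.18, adjusted p = 0.00295), and Plin4 fell as given above. Fkbp5, the chaperone often read as a sign of receptor activity, had 33.1, 22.7 and 24.1 CPM in the controls and 30.8, 33.6 and 57.2 CPM in cuprizone. Those groups overlapped, and the log2 fold change of 0.61 (adjusted p = 0.231) was 0.27 without cuprizone replicate 32. Among 11 chaperones of steroid receptors neither edgeR nor limma-voom called any, where edgeR called 7.57% and DESeq2 13.7% of all genes tested. An unadjusted p under 0.05 was seen for 1, against 23.3% of all genes tested. DESeq2 called that gene, Fkbp4, lower, at 212 ± 15.2 CPM and 147 ± 17.7 CPM (-0.53, adjusted p = 0.0683 with edgeR and 0.006 with DESeq2). Ptges3, a cochaperone, was at -0.25.

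The estrogen receptors were near the limit of detection. Esr1 (ENSMUSG00000019768, chromosome 10, 4611593 to 5005614) had 25, 13 and 26 counts in the controls and 23, 40 and 51 in cuprizone, or 1.47, 0.737 and 1.51 CPM and 1.04, 1.71 and 2.41 CPM. The groups overlapped (log2 fold change 0.47, 95% interval -0.51 to 1.45, adjusted p = 0.55), and the highest value was in cuprizone replicate 32, without which the fold change was 0.15. Esr2 (ENSMUSG00000021055, chromosome 12, 76120419 to 76177259) had 0, 1 and 3 counts in the controls and 2, 3 and 2 in cuprizone, and was too low to be tested. A count of 0 allows up to 3 counts, or 0.177 CPM in control replicate 24, for counting error alone, and no fold change is given because both groups are at or under that floor. None of 8 estrogen target genes passed with edgeR or limma-voom, where 7.57% of all genes tested passed with edgeR. DESeq2 called 1 of the 8, against 13.7% of all genes tested. There was also 1 at an unadjusted p under 0.05, against 23.3% of all genes tested. That gene, Igf1, an insulin-like growth factor, had 7.31, 5.72 and 2.62 CPM in the controls and 8.88, 14.3 and 25.6 CPM in cuprizone (1.64, adjusted p = 0.0935, and 0.00673 with DESeq2). The protease gene Ctsd was at 0.72 and the progesterone receptor Pgr at 0.44. Igf1 and Ctsd were highest in cuprizone replicate 32, the library with the most microglia and macrophage markers, and the part of those markers was not tested.

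Genes that supply ligands or pass the signal on were read out last. Of 19 tested coregulators edgeR, DESeq2 and limma-voom called 0, where edgeR called 7.57% and DESeq2 13.7% of all genes tested. An unadjusted p under 0.05 was seen for 1 (Tbl1x), against 23.3% of all genes tested. The coactivator Ncoa1 and the corepressor subunit Tbl1x were at 0.30 and 0.29 on the log2 scale. Of 14 tested genes of hormone transport and conversion 2 fell and none rose with edgeR (5.7% and 1.87% of all genes tested). DESeq2 called 3 lower and 2 higher, where it called 1400 of the 16569 genes tested lower and 862 higher. Fold changes in this list ran from -3.78 to 1.29 on the log2 scale, 10 negative and 4 positive, with a median of -0.28. Srd5a1, which reduces progesterone and testosterone to neuroactive steroids, had 48.0, 52.7 and 45.9 CPM in the controls and 13.3, 14.0 and 8.59 CPM in cuprizone (-2.03 ± 0.20, adjusted p = 0.00211), and its adjusted p was at most 0.0140 with any library left out. Fabp7, a fatty acid binding protein of glia, fell, with means of 29.8 ± 4.79 CPM and 19.5 ± 0.799 CPM (-0.61, adjusted p = 0.0457). That call was lost whichever library was left out (0.0501 to 0.152), and its adjusted p was up to 0.0657 with another scaling or filter. Cyp27a1, which hydroxylates sterols and vitamin D, had 15.3, 15.5 and 16.1 CPM in the controls and 4.82, 8.60 and 10.5 CPM in cuprizone, without overlap (-0.97, adjusted p = 0.0790, and 0.0133 with DESeq2). Ttr, a thyroid hormone carrier made by choroid plexus and chosen here after its values were seen, ranged from 11.3 to 4417 CPM within the controls.

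**Figure D5:**
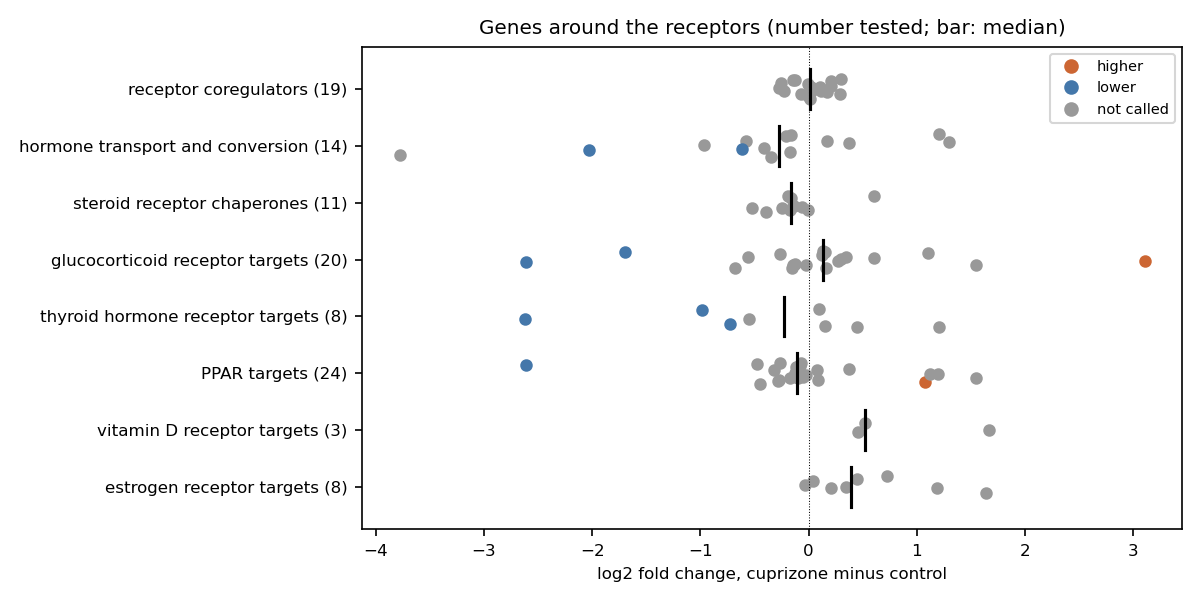
Log2 fold change, cuprizone minus control (horizontal axis), of each tested gene in 8 lists around the receptors, with a bar at the list's median. The median of the coregulators lies at 0.01, and coloured points mark the genes with an adjusted p under 0.05.

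The genes whose levels followed a member most closely over the 6 libraries are given as a description, as Pearson r of log2 CPM over 6 libraries that share their diet groups, with up to 12329 genes compared. For Ppard they were Rdx, Adora1 and R3hcc1 (r of 0.998 to 0.999), for Nr3c1 Trim35, Klf11 and Zzz3 (0.992 to 0.997), for Rxra Sumo3, Gm15512 and Stx3 (0.987 to 0.989), for Thra Rrp7a, 2210016L21Rik and Arf5 (0.996 to 0.999), and for Vdr Ggta1, Osmr and Tnfrsf1a (0.991 to 0.994).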

How the data were processed

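RNA from tagged ribosomes was sequenced from 3 control and 3 cuprizone libraries. The deposited table holds raw counts per Ensembl mouse gene, and bcl2fastq 2.17 and mm10 are named per the submitters' processing notes. The authors' aligner, counter, annotation and strand setting were not given in the sources used here. Groups came from the titles. Names, coordinates and exon lengths came from GENCODE M21 (GRCm38, also called mm10), which matched 37607 of 39017 identifiers. Of the list genes, Prmt1, Sts and Lhfpl3 had no match.

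Genes were kept by filterByExpr (minimum count 10, minimum total 15), which left 16569, and scaled by TMM. Cuprizone was compared with control in R 4.3.3 with edgeR 4.0.16 (glmQLFit with robust estimation, 2-sided glmQLFTest). Adjusted p-values are Benjamini-Hochberg values over the 16569 genes, called under 0.05. Standard errors are the fold change over the square root of F. DESeq2 1.42.0 and limma-voom (limma 3.58.1) were alternatives, with other scalings, filters and each library left out. The procedure was tested on simulated counts. CPM and RPKM (merged exons) are mean ± SD. Replicate pairs were compared by chi-square over genes with at least 10 counts, and no pair agreed within sampling noise.

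The members and lists were chosen with earlier results of these data known. The named genes are all members, the called nuclear receptors and the 5 with the smallest p, and the 3 genes with the smallest p of each pathway list, with further ones marked as such and Klf9, Cpt1a, Hadha, Cyp24a1 and Rxrb named outside that rule. The rule asks for genes of like pattern only for members past the threshold; they are named for 5 members although none passed. That likeness is Pearson r of log2 CPM (prior count 2) over genes averaging at least 5 CPM. Some genes that this rule names are not reported here. The gene lists of cell types are given as summed levels, and some also by calls, overlap or median fold change.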

Additional observations from a re-analysis of the deposited data

How the results depend on the processing

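No paired analysis was possible because the groups share no replicate number. With DESeq2 862 genes were higher against 310 with edgeR, and 2 of the receptors were called against 0. In the pathway lists and the other nuclear receptors together, 13 genes were higher against 5. With a library left out the genes called higher numbered 65 to 464 and those lower 474 to 963 (310 and 945 with all 6). The receptors called then numbered 0 to 1 (Vdr without cuprizone replicate 32). The pathway genes and other nuclear receptors together numbered 1 to 5 higher and 2 to 6 lower (5 and 7 with all 6). The smaller fits hold fewer samples. The log2 fold change of Thra ran from -0.22 to 0.18 and was -0.05 without control replicate 26, and that of Thrb ran from -0.0393 (without control replicate 24) to 0.32; the cause was not tested. Over 115 refits of members, 109 kept their direction and their side of the threshold, 3 changed direction and 3 passed it. Pparg and Vdr were not tested when 3 libraries had to exceed 1 CPM. Depth limits Esr1, Esr2, Pparg and Vdr, with at most 51 counts in any library.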
